A study of Homo sapiens with 2 samples.

Results

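Open chromatin was examined around 6 genes whose loss or mutation is known in oral squamous carcinoma: CDKN2A, CDKN2B, CDKN1A, FAT1, CASP8 and AJUBA. Members were the listed ATAC-seq regions that lay in the body of 1 of these genes or within 50 kb of either end, on the hg38 build. ATAC-seq reads out open chromatin through the Tn5 transposase, which inserts sequencing adapters into accessible DNA. Both libraries came from CAL27, an established line from a squamous carcinoma of the tongue. In the untreated group the cells received no treatment, and in the lactate group they received 10 mM lactate for 24 h. Each group is 1 library, made from the nuclei of live cells that had been kept frozen, so no difference could be set against the spread between cultures and no test was made. The mutations that these CAL27 cells carry in the 6 genes are not given in the sources used here.

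The 2 lists held 67 of these regions after overlapping ones were merged, of 130506 in all, around 6 of 19974 protein-coding genes. Of the 67, 44 were shared, that is, listed in both libraries. The lactate list alone held 17 and the untreated list alone 6. The shared share was 65.7% (exact 95% binomial interval 53.1 to 76.8), against 66.5% of all merged regions. Lactate-only regions made up 25.4% (15.5 to 37.5) of the members, against a background of 26%. Untreated-only regions made up 8.96% (3.36 to 18.5), against 7.48%. All 3 intervals hold the background value with the full lists. They treat the regions as independent, however, while regions of 1 locus went together. The shared share was 23.5% in the AJUBA window and 71.4% to 83.3% in the others. The intervals thus do not measure the spread of such a set and do not decide whether it differs from the rest of the genome. Without the AJUBA window the library-only counts were 9 in lactate and 1 in untreated, so AJUBA held 8 of the former and 5 of the latter. The lactate list was also cut, by the deposited fold enrichment, to the 98152 regions of the uncut untreated list. The order of the library-only counts then turned, with 8 lactate-only and 18 untreated-only regions of 58. These are 13.8% and 31% of the members, against 16.4% and 15.7% of all regions under the same cut. With lists of equal length the untreated-only share of the members thus lay well above the background. No interval was formed for these shares.

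CDKN2A, CDKN2B and CDKN1A encode inhibitors of cyclin-dependent kinases, and by blocking these kinases they keep the retinoblastoma protein in its growth-suppressing form and cells out of S phase. CDKN2A gives 2 unrelated proteins from 2 starts: the upstream start serves ARF, which protects p53 from MDM2, and the downstream start serves p16 (INK4a), which blocks CDK4 and CDK6. CDKN1A, which encodes p21, is a classic target gene of p53. CASP8 encodes caspase-8, the protease that death receptors activate to begin apoptosis. FAT1 is a giant cadherin that promotes the Hippo kinase cascade, which holds back YAP, and restrains Wnt signalling, and AJUBA is a LIM-domain protein that binds the LATS kinases of the Hippo pathway and cell junctions.

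The promoters of these genes differ widely in composition. The RefSeq promoter table for GRCh38.p14 covered all 6 genes with 11 starts, and each sequence in it runs from 250 bases before to 50 after an annotated start. The sequences printed are those of the starts on which the results turn: both starts of CDKN2A, which serve different proteins, CDKN1A with the highest ratio, FAT1 with the lowest, AJUBA with a region in 1 library alone, and CASP8, the poorest in CpG among the members' outer starts. All are written 5′ to 3′ in the direction of the gene, and capitals mark matches on either strand to 6 motifs, which were chosen with the sequences known.
CDKN2A ARF start, chr9:21995275-21995574, minus strand: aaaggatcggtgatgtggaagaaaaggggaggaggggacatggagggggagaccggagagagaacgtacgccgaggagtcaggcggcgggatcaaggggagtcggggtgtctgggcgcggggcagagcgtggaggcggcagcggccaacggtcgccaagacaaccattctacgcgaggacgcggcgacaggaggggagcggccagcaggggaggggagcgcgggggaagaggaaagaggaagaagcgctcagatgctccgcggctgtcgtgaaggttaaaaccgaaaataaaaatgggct
CDKN2A INK4a start, chr9:21974808-21975107, minus strand: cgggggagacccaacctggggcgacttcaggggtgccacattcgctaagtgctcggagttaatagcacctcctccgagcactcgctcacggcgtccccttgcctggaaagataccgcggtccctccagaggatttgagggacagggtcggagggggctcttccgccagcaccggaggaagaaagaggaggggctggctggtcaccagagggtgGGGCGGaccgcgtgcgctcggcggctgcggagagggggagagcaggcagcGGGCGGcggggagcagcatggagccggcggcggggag
CDKN1A start, chr6:36678464-36678763, plus strand: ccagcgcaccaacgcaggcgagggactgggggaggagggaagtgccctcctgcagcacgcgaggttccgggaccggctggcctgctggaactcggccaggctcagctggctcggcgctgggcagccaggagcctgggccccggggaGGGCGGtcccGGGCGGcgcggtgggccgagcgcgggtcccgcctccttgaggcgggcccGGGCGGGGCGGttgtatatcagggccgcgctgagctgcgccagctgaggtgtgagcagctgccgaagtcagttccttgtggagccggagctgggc
FAT1 outer start, chr4:186726647-186726946, minus strand: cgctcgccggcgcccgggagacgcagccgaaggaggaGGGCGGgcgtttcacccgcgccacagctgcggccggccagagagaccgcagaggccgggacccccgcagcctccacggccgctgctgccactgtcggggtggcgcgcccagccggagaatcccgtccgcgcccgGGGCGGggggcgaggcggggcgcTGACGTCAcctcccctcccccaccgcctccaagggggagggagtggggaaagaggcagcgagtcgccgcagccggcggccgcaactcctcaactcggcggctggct
CASP8 outer start, chr2:201233213-201233512, plus strand: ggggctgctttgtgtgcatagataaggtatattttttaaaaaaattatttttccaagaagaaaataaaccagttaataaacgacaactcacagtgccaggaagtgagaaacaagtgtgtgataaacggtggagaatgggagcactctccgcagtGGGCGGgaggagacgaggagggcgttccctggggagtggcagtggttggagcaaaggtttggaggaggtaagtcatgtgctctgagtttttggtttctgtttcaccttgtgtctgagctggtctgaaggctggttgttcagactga
AJUBA outer start, chr14:22982502-22982801, minus strand: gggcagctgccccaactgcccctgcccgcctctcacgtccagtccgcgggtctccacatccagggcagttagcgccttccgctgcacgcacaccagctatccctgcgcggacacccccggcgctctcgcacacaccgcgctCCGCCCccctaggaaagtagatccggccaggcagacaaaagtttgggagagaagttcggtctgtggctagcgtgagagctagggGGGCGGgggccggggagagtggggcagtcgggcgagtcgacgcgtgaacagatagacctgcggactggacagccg

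The motifs searched were the GC box GGGCGG, the CCAAT box CCAAT, the cAMP response element TGACGTCA, the AP-1 site TGANTCA, the TEAD site GGAATG and the TATA box TATAAA. Of the 34961 promoters in the table, 45% held a GC box, 34.6% a CCAAT box, 1.85% a cAMP response element, 7.68% an AP-1 site, 14% a TEAD site and 11.5% a TATA box. CDKN1A held 4 GC boxes, whose first bases lay at -104, -94, -45 and -40 from the start, and the last 2 overlap by 1 base in the printed run GGGCGGGGCGG. FAT1 held 2 GC boxes and a cAMP response element at -56. The INK4a start of CDKN2A and the outer start of AJUBA held 2 GC boxes each, and the outer CASP8 start held 1. At the ARF start none of these letters occurred in the window. The CDKN2B promoter held 2 GC boxes and a TEAD site at -199. The inner CASP8 start held 2 CCAAT boxes, a TATA box at -139 and an AP-1 site at -1.

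GC content ran from 43% at the inner CASP8 start to 77.3% at the outer FAT1 start, against a median of 58.7% over the table. FAT1 also had the most CpG dinucleotides among the printed promoters, 40, against 6 at the outer CASP8 start and a median of 14. CDKN1A had 29 CpGs and a GC content of 74.3%. The highest and the lowest ratio at a start, described next, thus both belonged to promoters that were rich in GC.

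The height of a region is the pileup at its highest summit, the number of extended tags covering that base, given as tags per 1000000 total tags of the library (CPM). The untreated library had 18248413 tags and the lactate library 15401276, so 1 tag was worth 0.0548 and 0.0649 CPM. The ratio is the lactate height over the untreated height, with an exact 95% interval from the tag counts that covers counting error only. Over all 86803 shared regions the median ratio was 1.65, with 10% below 0.969 and 10% above 2.57, so a ratio near 1.65 is the background and not a difference of the member. Because the ratio also grew with the number of tags, a relative ratio was formed by dividing it by the median of shared regions with similar summit tags. A higher summit in bulk cells may be more cells open at that site or more open DNA per cell, and these cannot be told apart. As a check of the label, 8 of 10 squamous keratinocyte markers were listed in both libraries at an annotated start or gene end, KRT5 among them, while KRT14 and TP63 had none. Endothelial markers had none of 6, and fibroblast, leukocyte and neuronal markers had 3 of 8, 3 of 7 and 2 of 5, against 57.9% of all protein-coding genes. The other neuronal markers were listed in 1 library alone, 1 in lactate and 2 in untreated.

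Over the 44 shared member regions the median ratio was 1.55, with a range of 0.558 to 2.90. Together their summits held 1212 untreated and 1724 lactate tags, a pooled ratio of 1.69 (1.57 to 1.82). The pooled ratio of all shared regions was 1.75. A ratio of 2 or more was found at 11 of the 44, against 29.3% of all shared regions. A ratio below 1 was found at 7, against 11.3%, and a ratio of 0.5 or less at 0, against 0.297%. The relative ratio lay below 1 at 27 of 44, against 48.6%. By gene the median ran from 1.13 at FAT1 to 2.02 at AJUBA, and the map of the loci shows every region.

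**Figure D1:**
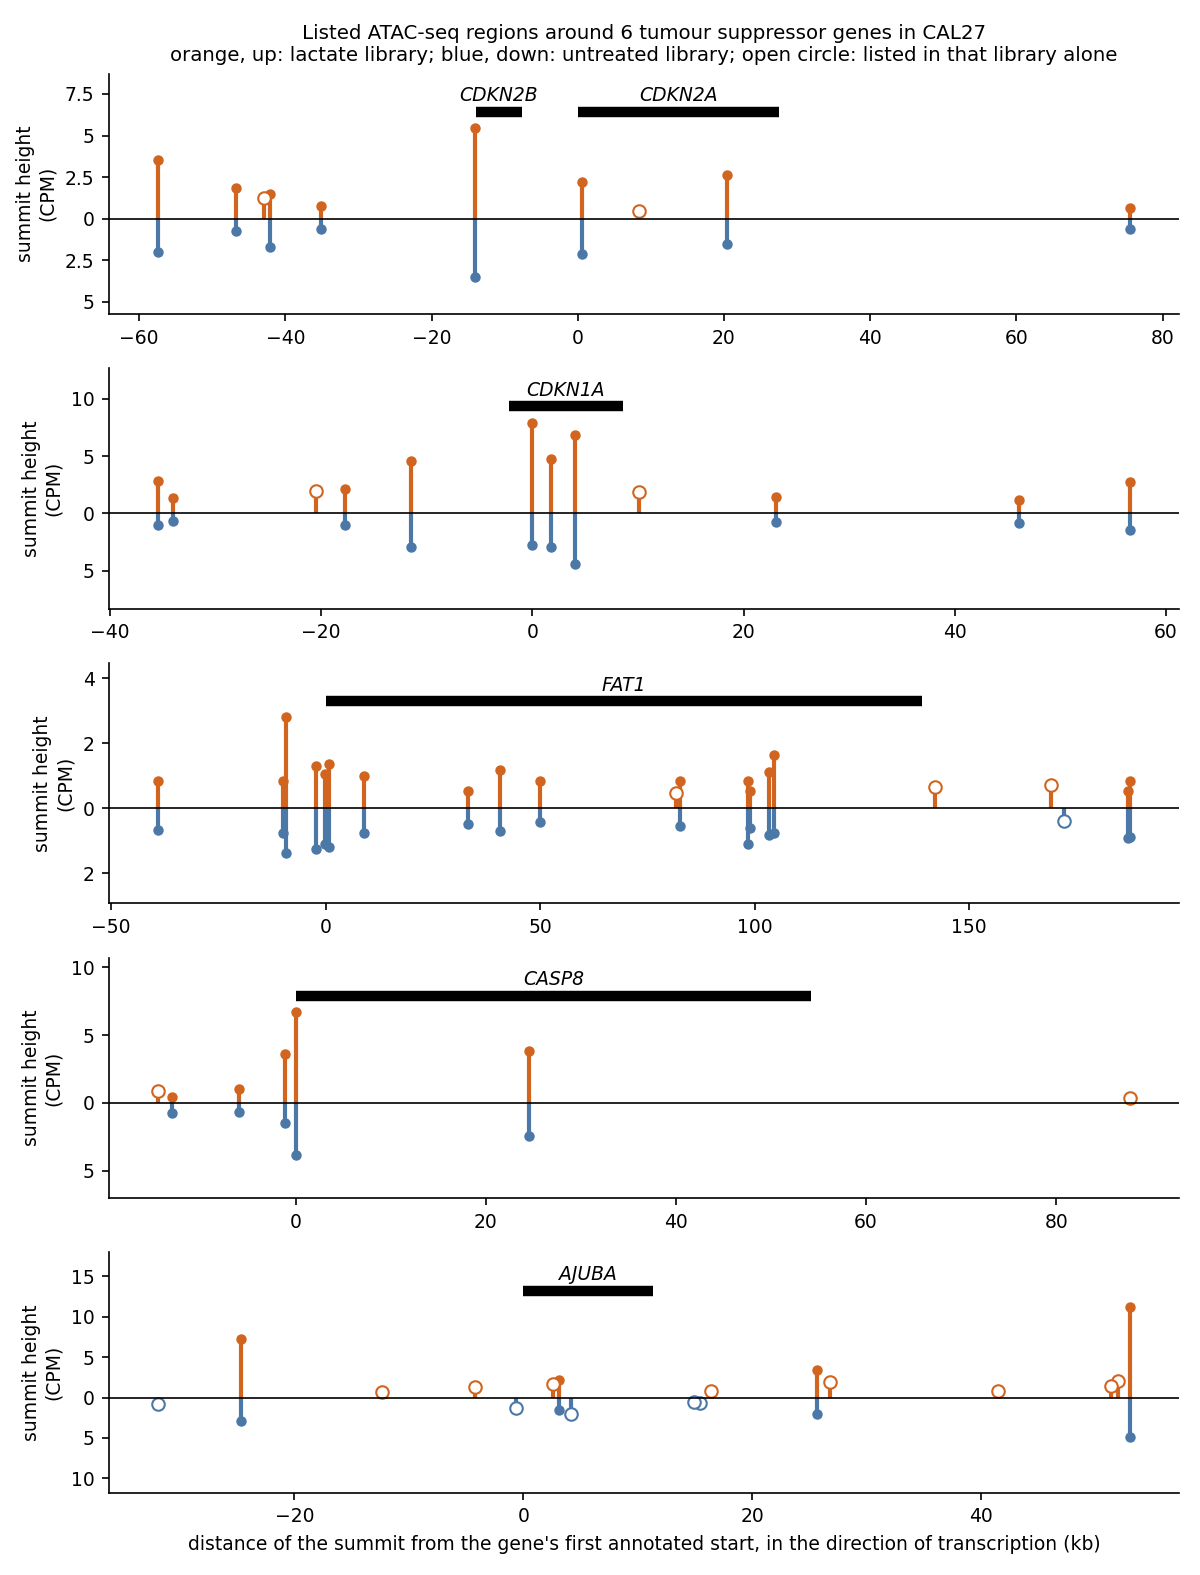
Listed regions around the 6 genes by distance of the summit from the first annotated start (x axis, kb, in the direction of transcription). The y axis gives summit height in CPM, lactate upward in orange and untreated downward in blue, open circles mark regions listed in that library alone, and black bars are gene bodies. AJUBA has 13 open circles among 17 regions, whereas CDKN1A has 10 of 12 regions in both libraries with the lactate side higher at each. Of all shared regions 11.3% had a ratio below 1.

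At the annotated starts, 5 of the 6 genes had a region within 1 kb of the first start in both libraries, against 59.5% of the 15812 genes with an annotated start. AJUBA had one in the untreated library alone, as did 0.854% of those genes. None of the 6 had one in the lactate library alone, against 6.49%. The median ratio over all 9409 shared start regions was 1.84. Among them 39.1% had a ratio of 2 or more and 2.94% a ratio below 1. Of the 5 members, CDKN1A had a ratio of 2 or more and FAT1 a ratio below 1. Scaling each library to its median pileup over shared regions instead of its total tags multiplies every ratio by the same factor. It moved the median ratio of all shared regions to 0.987. The ratio then fell below 1 at the ARF start of CDKN2A (0.619), at CDKN2B (0.931) and at the inner CASP8 start (0.930). FAT1, already below 1, stood at 0.568 and CDKN1A at 1.73.

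**Figure D2:**
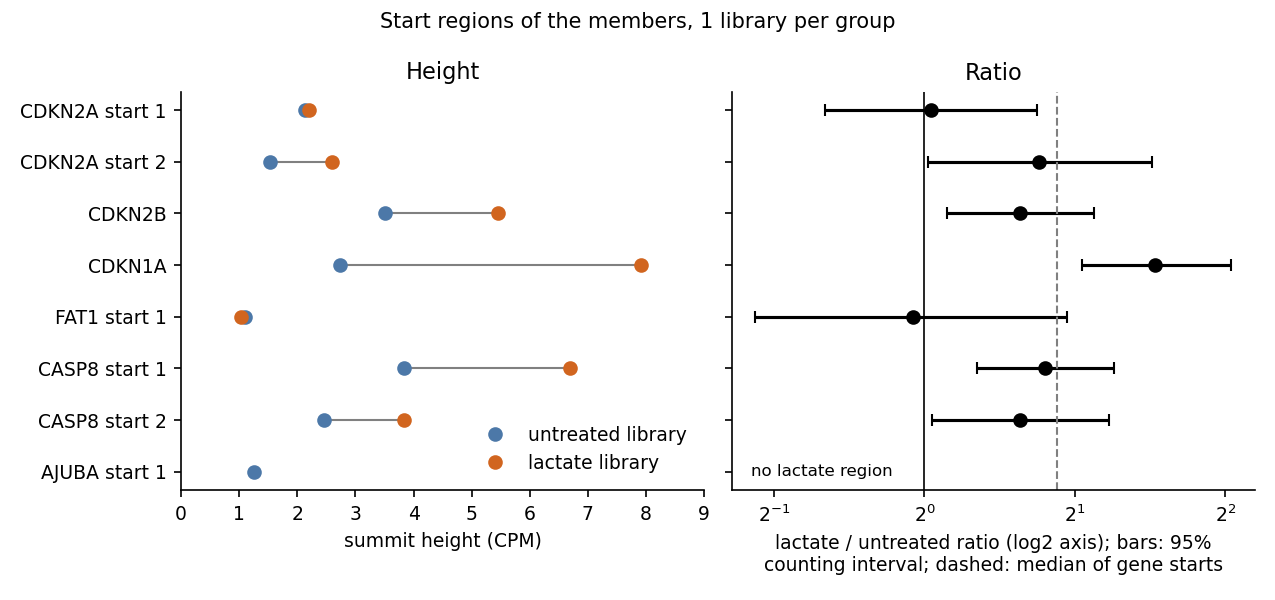
Start regions of the members, with summit height (CPM) in each library on the left and the lactate to untreated ratio on a log2 axis on the right. Points are single libraries, bars are 95% counting intervals, and the dashed line is the median of all shared start regions, 1.84. CDKN1A stands at 2.89 with its whole interval above that line, and the ARF start of CDKN2A (start 1) stands at 1.03 with its interval below it.

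CDKN2A and CDKN2B lie next to each other on chromosome 9, both on the minus strand. CDKN2A spans chr9:21967752-21995324 and CDKN2B spans chr9:22002903-22009313, with 7578 bp between them. Their windows shared 8 of the 10 regions found in either, so values for the pair are largely the same data. Each window had 7 shared and 2 lactate-only regions.

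The ARF start of CDKN2A lay in the region chr9:21993940-21995923, which also covers the start of the antisense gene CDKN2B-AS1. Its summit held 39 tags untreated and 34 in lactate, or 2.14 and 2.21 CPM. The ratio was 1.03 (0.633 to 1.68), and 3.45% of the shared start regions of the genome had a lower one. Relative to regions of similar tags the ratio was 0.581 (0.356 to 0.945). The region has 4 summits untreated and 5 in lactate, and the values are those of the highest in each library. In lactate that summit lay 575 bp into the gene from the ARF start. The greatest height in this region was thus nearly the same in both libraries, while most starts were higher in lactate.

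The INK4a start, in chr9:21974480-21976035, held 28 tags untreated and 40 in lactate, or 1.53 and 2.60 CPM. Its ratio was 1.69 (1.02 to 2.85) and its relative ratio 0.964, close to the background. In the untreated library the ARF start was the taller and in the lactate library the INK4a start was. The intervals of the 2 ratios overlap, and the difference between the starts was not tested.

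CDKN2B encodes p15, a CDK4 and CDK6 inhibitor that responds to TGF-beta. Its start region, chr9:22008625-22009730, was the tallest of the locus in both libraries, with 64 tags untreated and 84 in lactate, or 3.51 and 5.45 CPM. The ratio was 1.56 (1.11 to 2.19) and the relative ratio 0.822 (0.587 to 1.16). Starts with a lower ratio made up 29.4% of the genome's shared start regions.

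Beyond the CDKN2B start, in the direction in which CDKN2B-AS1 is transcribed, 4 further shared regions lay within 50 kb. The tallest, chr9:22052345-22053189, held 37 and 54 tags, a ratio of 1.73. At chr9:22037248-22037591 the summit had 31 tags untreated and 23 in lactate, a ratio of 0.879 (0.489 to 1.56) and a relative ratio of 0.524. At chr9:22041894-22042207 it had 13 and 28 tags, a ratio of 2.55 (1.28 to 5.37). These neighbouring sites thus had ratios on both sides of the background, the first with an interval that holds 1.

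The strongest lactate-only region of the locus, chr9:22038138-22038353, held 19 tags with a fold enrichment of 5.18. Fold enrichment, taken from the deposited lists, divides the pileup by the tag density expected from the surrounding DNA and is each region's own value. The other lactate-only region, chr9:21986949-21987148 inside CDKN2A, held 7 tags. The median ratio over the shared regions was 1.29 in the CDKN2A window and 1.56 in the CDKN2B window. Of the 14140 genes with at least 5 shared regions, 5.25% had a lower median than CDKN2A and 26.7% a lower one than CDKN2B. These ranks are not adjusted for tags, and the median relative ratios were 0.909 and 0.964.

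CDKN1A lies on the plus strand at chr6:36676463-36687332, and its annotated start in the promoter table is at position 36678714. Of its 12 regions 10 were shared, 2 were lactate-only and 0 untreated-only. All 10 shared regions were higher in the lactate library, with ratios of 1.42 to 2.90 and a median of 1.92. Of all shared regions only 11.3% had a ratio below 1. A ratio of 2 or more was found at 5 of the 10, against 29.3% of all shared regions. The relative ratio lay above 1 at 6 of the 10 and below 1 at 4. The pooled ratio was 1.91 (1.67 to 2.19), against 1.75 over all shared regions, and 76.7% of genes had a lower median.

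The start region of CDKN1A, chr6:36678445-36679139, also covers the start of the long noncoding RNA gene DINOL. It held 50 tags untreated and 122 in lactate, or 2.74 and 7.92 CPM. The ratio was 2.89 (2.06 to 4.10), higher than at 93.6% of the shared start regions. Relative to regions of similar tags it was 1.49 (1.06 to 2.11), so the interval lies above the background of its height class. Its fold enrichment was low in both lists, 2.85 untreated and 4.78 in lactate, beside the dense cover of the DNA around it that is described with the 10 kb counts. At a fold enrichment of at least 4 this start was no longer listed in both libraries.

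Inside the gene, chr6:36680132-36680691 held 53 and 73 tags, a ratio of 1.63 (1.13 to 2.37). Further in, chr6:36682333-36683125 held 81 and 105 tags, a ratio of 1.54 (1.14 to 2.08). In the untreated library the start was the lowest of these 3 summits, with 50 tags (exact 95% Poisson interval 37.1 to 65.9), although the next, with 53 (39.7 to 69.3), did not differ beyond counting error. In the lactate library the start was the tallest, with 122 tags (101 to 146), ahead of 105 (85.9 to 127), again with overlapping intervals. The ratio at the start was thus larger than at the sites inside the gene, whose relative ratios were 0.878 and 0.792. Its interval begins at 2.06 and overlaps theirs, which end at 2.37 and 2.08. Such overlap does not show that the ratios were alike, and their difference was not tested.

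Upstream, chr6:36666885-36667638 was the third tallest of the other regions by CPM summed over both libraries, with 54 and 71 tags and a ratio of 1.56 (1.08 to 2.26). The highest ratio of any shared member region, 2.90 (1.64 to 5.33), was at chr6:36643109-36643633, with 18 and 44 tags. The lactate-only region chr6:36658069-36658414 had the highest fold enrichment of all library-only members, 7.71, with 30 tags. The same density would give 35.5 tags in the deeper untreated library, where regions as low as 9 tags were listed at a similar local background. A site as open as this one would thus have stood well above the lowest untreated regions listed. The other lactate-only region, downstream at chr6:36688723-36688963, held 29 tags with a fold enrichment of 3.79.

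FAT1 spans 139 kb on the minus strand, chr4:186587794-186726696, and its window held 21 regions, more than those of 94.6% of genes. That rank is not adjusted for the length of the window, 239 kb here. Per 100 kb the FAT1 window held 8.79 regions, between 8.46 at CDKN2B and 10.8 at CDKN1A. Of the 21 regions, 17 were shared, 3 lactate-only and 1 untreated-only. The shared summits were low, between 0.438 and 1.37 CPM untreated and between 0.519 and 2.79 in lactate. The median ratio was 1.13, and 1.32% of the 14140 genes had a lower one. This rank is not adjusted for tags, although ratios are lower at summits of few tags. The median relative ratio was 0.871, the lowest of the 6 genes but close to 0.899 at CASP8 and 0.909 at CDKN2A. The pooled ratio was 1.25 (1.05 to 1.48), against 1.75 over all shared regions. A ratio below 1 was found at 5 of the 17, and a relative ratio below 1 at 12.

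The outer start of FAT1 lay in chr4:186726494-186726964, with 20 tags untreated and 16 in lactate, or 1.10 and 1.04 CPM. The ratio was 0.948 (0.459 to 1.93), and 2.09% of shared start regions had a lower one. The interval holds both 1 and the background of 1.84, so at this depth the value could be told from neither. This start too was no longer listed in both libraries at a fold enrichment of at least 4. Just inside the gene, chr4:186725876-186726175 held 22 and 21 tags, a ratio of 1.13. Upstream, chr4:186728897-186729212 held 23 and 20 tags, a ratio of 1.03. The 3 regions at this end of FAT1 were therefore alike, with ratios near 1. The inner FAT1 start, at position 186723856, had no region within 1 kb in either list.

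The tallest region of the FAT1 window lay upstream, at chr4:186735657-186736316. It held 25 and 43 tags, a ratio of 2.04 (1.22 to 3.48), whose interval overlaps that of the start. The highest ratio, 2.12 (1.06 to 4.40), was in the gene body at chr4:186621992-186622658, with 14 and 25 tags. The lowest, 0.558 (0.208 to 1.36), was downstream at chr4:186539711-186539910, with 17 and 8 tags. Ratios in the FAT1 window thus lay on both sides of 1, at summits of few tags whose intervals are wide.

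The strongest lactate-only region of the FAT1 window, chr4:186557587-186557828, held 11 tags with a fold enrichment of 6.02. Its only untreated-only region, chr4:186554511-186554720, lay at the start of MTNR1A, a melatonin receptor gene, and held 7 tags with a fold enrichment of 3.67.

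CASP8 lies on the plus strand at chr2:201233463-201287711. Its window held 7 regions, 5 shared and 2 lactate-only, fewer than the median of 10 per gene. The outer start lay in chr2:201233257-201234262, with 70 tags untreated and 103 in lactate, or 3.84 and 6.69 CPM. The ratio was 1.74 (1.27 to 2.40) and the relative ratio 0.899. The inner start lay in chr2:201257355-201258767, with 45 and 59 tags, a ratio of 1.55 (1.04 to 2.34) and a relative ratio of 0.852. Both intervals hold the median of all starts, 1.84. With all summits of a region summed, however, the outer start stood at 1.12, where the median of all shared regions was 1.58. That sum adds 3 summits untreated and 1 in lactate, so it also reflects how many summits were called. The innermost start, at position 201260536, had no region in either list.

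Just upstream of the outer CASP8 start, chr2:201232201-201232574 held 27 and 56 tags, a ratio of 2.46 (1.53 to 4.05) and a relative ratio of 1.38. Further upstream, chr2:201227072-201227564 held 12 and 16 tags, a ratio of 1.58. The only CASP8 region lower in lactate, chr2:201220079-201220571, held 13 and 7 tags, a ratio of 0.638 (0.216 to 1.72) with an interval that holds 1. The stronger lactate-only region, chr2:201218847-201219063, held 13 tags with a fold enrichment of 5.60. Over the 5 shared regions the median ratio was 1.58, with 29.3% of genes below it. The pooled ratio was 1.71 (1.40 to 2.10), against 1.75 over all shared regions.

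AJUBA lies on the minus strand at chr14:22971177-22982551, in a window dense with other genes. It held 17 regions, of which 4 were shared, 8 lactate-only and 5 untreated-only. The shared share was 23.5% (6.81 to 49.9). Among the 10127 genes with at least 10 regions, 0.118% had a shared share as low, and 0.563% had an untreated-only share as high as its 29.4%. The 2 lists thus matched less well around AJUBA than around the other members, whose shared shares ran from 71.4% to 83.3%.

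The outer AJUBA start had an untreated-only region, chr14:22982980-22983485, 429 bp away. It held 23 tags, or 1.26 CPM, with a fold enrichment of 2.26, and the nearest region of the lactate list lay 3200 bp away. The same density would give 19.4 tags in the lactate library. The lowest lactate pileup listed at a similar local background was 20 tags, over 1266 regions, so an equally open start could have gone unlisted there. The call of AJUBA as untreated-only at its start therefore does not show that the site was lower in lactate. The inner AJUBA start, at position 22976842, had no region in either list.

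Inside AJUBA 3 regions lay close together. The shared one, chr14:22979159-22979536, held 29 tags untreated and 34 in lactate, a ratio of 1.39 (0.821 to 2.36). The untreated-only one, chr14:22978280-22978483, held 37 tags with a fold enrichment of 3.29. The lactate-only one, chr14:22979859-22980125, held 25 tags with a fold enrichment of 2.38. The gene body thus had sites listed in each library, with summits of similar height. Over the whole window the strongest lactate-only region by fold enrichment was chr14:22940933-22941156, with 12 tags and 5.70, and the strongest untreated-only one was chr14:23014393-23014592, with 14 tags and 4.81.

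The tall shared regions of the AJUBA window belonged to other genes or lay between them. The tallest, chr14:22929287-22930134 at the start of the arginine methyltransferase gene PRMT5, held 88 and 173 tags, a ratio of 2.33 (1.79 to 3.05). Upstream of AJUBA, chr14:23006721-23007415 held 53 and 111 tags, a ratio of 2.48 (1.77 to 3.51). The region at the start of HAUS4, which encodes a subunit of the augmin complex of the spindle, held 36 and 52 tags, a ratio of 1.71 (1.10 to 2.70). The AJUBA window's pooled ratio of 2.13 (1.79 to 2.54), against 1.75 over all shared regions, was therefore carried by regions away from the gene.

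**Figure D3:**
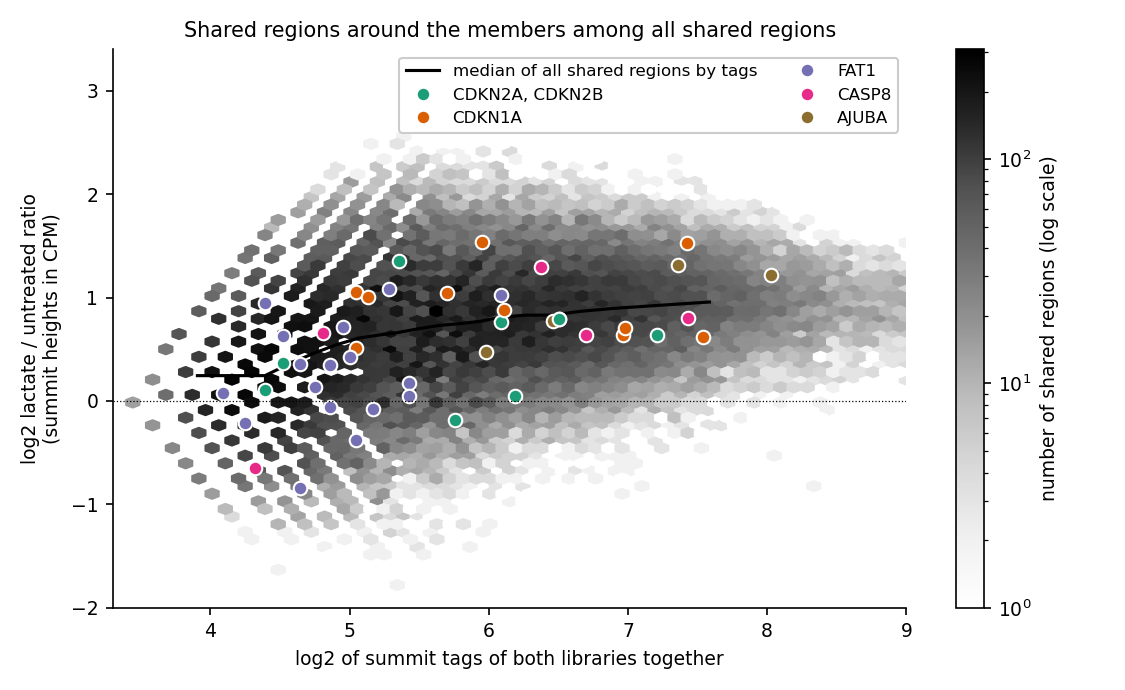
Shared member regions (coloured points) over all 86803 shared regions (grey hexagons, shading on a log scale). The x axis is the log2 of the summit tags of both libraries together and the y axis the log2 lactate to untreated ratio. The black line joins the medians of the 20 classes of summit tags, without the highest class, which begins at 225 tags. Points of FAT1 lie at few tags and mostly below the line, at 12 of 17 regions. The CDKN1A start and the second tallest AJUBA-window region lie above it. The tallest AJUBA-window region lies beyond the end of the line, with a relative ratio of 1.22.

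A second readout was the number of tags in the 10 kb around each summit, which the peak caller used as its local background and which could be recovered as whole tags from the deposited pileup and fold enrichment. The summit's own tags are among them, and windows of close summits overlap. Over the 68147 shared regions with both counts the median ratio was 1.16, with 10% below 0.863 and 10% above 1.55. Over the 37 shared member regions with both counts it was 1.15.

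CDKN1A stood out for how densely its surroundings were covered. The 10 kb around its start held 845 tags untreated and 1236 in lactate, more than 99.3% and 99.5% of shared regions in the respective library. The 10 kb ratio was 1.73 (1.59 to 1.89), higher than at 96.2% of them. The 2 sites inside the gene, whose 10 kb windows overlap that of the start, had ratios of 1.75 and 1.73. The 4 shared upstream regions had 10 kb ratios of 1.25 to 1.43, the highest of them 1.43 (1.09 to 1.89) at chr6:36643109-36643633, with an interval that overlaps that of the start. The 3 shared downstream regions had ratios of 0.891 to 1.13. The lactate-only region closest downstream has no untreated 10 kb count, so its surroundings could not be compared.

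The 10 kb ratios of the shared regions in the CDKN2A and CDKN2B windows ran from 0.703 (0.487 to 1.005), at chr9:22030094-22030651, to 1.24. The 10 kb around the INK4a start held 205 and 172 tags, a ratio of 0.994 (0.807 to 1.22). The summit made up 13.7% of those tags untreated and 23.3% in lactate. At the ARF start the 10 kb held 309 and 280 tags, a ratio of 1.07 (0.910 to 1.27), with the summit at 12.6% and 12.1%. Around the CDKN2B start there were 317 and 331 tags, a ratio of 1.24 (1.06 to 1.45). The highest summit of the ARF start region therefore kept its share of the surrounding tags, and that of the INK4a start region had a larger share in lactate.

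At the outer FAT1 start the 10 kb held 246 and 220 tags, a ratio of 1.06 (0.879 to 1.28), on the other side of 1 from the summit ratio of 0.948. At the outer CASP8 start it held 391 and 367 tags, a ratio of 1.11 (0.962 to 1.29), below the summit ratio of 1.74. Around the shared region inside AJUBA it held 528 and 513 tags, a ratio of 1.15 (1.02 to 1.30), near the median of all regions. The ratio at CASP8 was thus higher at the summit than over its surroundings, and so were the medians of all regions, 1.65 and 1.16.

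**Figure D4:**
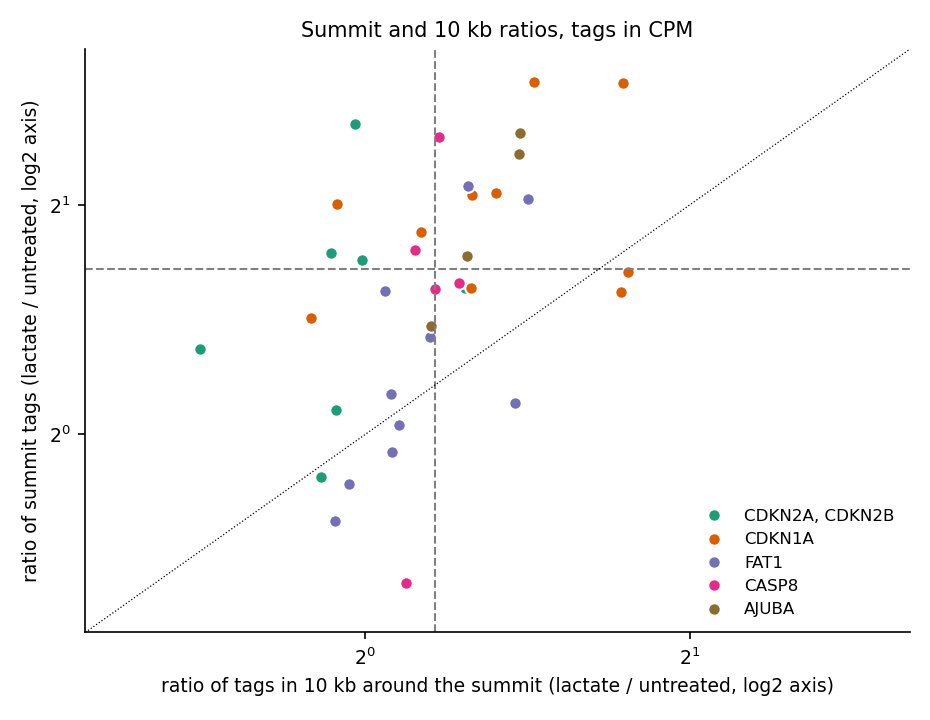
Ratio of summit heights in CPM (y axis) against the ratio of tags in CPM in the 10 kb around the summit (x axis) for 37 shared member regions, both on log2 axes. Dashed lines are the medians of all shared regions, and the dotted line marks equal ratios. The 3 central CDKN1A regions stand at the right with 10 kb ratios of 1.73 to 1.75, and the CDKN2A and CDKN2B regions lie at or left of 1.24.

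In the pathways of the members, each gene was read at its annotated start or, where none was given, at either end. Over all 19974 protein-coding genes, 57.9% had such a region in both libraries, 6.85% in lactate alone and 0.896% in untreated alone, and the median ratio was 1.84. Of the other CDK inhibitors 3 of 4 had one in both, with a median ratio of 2.05. CDKN2D, which encodes p19 (INK4d), had the highest, with 49 and 128 tags and a ratio of 3.10 (2.21 to 4.39). CDKN2C, for p18 (INK4c), had the lowest, 1.87, and CDKN1C, for p57, was listed in lactate alone with 17 tags. The start of CDKN2D thus had a ratio near that of CDKN1A and above that of the paralogues CDKN2A and CDKN2B.

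In the RB pathway downstream of these inhibitors 9 of 14 genes had a region in both libraries, with a median ratio of 1.71. E2F1, a transcription factor held in check by the retinoblastoma protein, had the highest, with 40 and 117 tags and a ratio of 3.47 (2.40 to 5.10). CDK4, the kinase that p16 blocks, had the lowest, with 45 and 50 tags and 1.32 (0.862 to 2.02). The cyclin genes CCND2, CCND3 and CCNE1 were listed in lactate alone, with 15, 25 and 44 tags. RB1 and CDK6 had a region in neither list.

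In the p53 pathway 9 of 10 genes had a region in both libraries, with a median ratio of 2.09 and 5 ratios of 2 or more. The growth-arrest gene GADD45A had the highest, with 73 and 168 tags and 2.73 (2.06 to 3.64). MDM2, whose product degrades p53, had the lowest, with 32 and 42 tags and 1.56 (0.959 to 2.55). Like CDKN1A, both are targets of p53, and the interval at MDM2 holds the median of all genes.

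Of the death receptor genes around CASP8, 11 of 14 had a region in both libraries, with a median ratio of 1.66. The TRAIL receptor gene TNFRSF10A had the highest, with 22 and 54 tags and 2.91 (1.74 to 5.01). The TNF receptor gene TNFRSF1A had the lowest, with 24 and 20 tags and 0.987 (0.517 to 1.87). The second TRAIL receptor gene, TNFRSF10B, was listed in untreated alone, with 24 tags.

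Among the FAT cadherins and the Hippo pathway 15 of 22 genes had a region in both libraries, with a median ratio of 1.67. NF2, which encodes the upstream Hippo regulator merlin, had the highest, with 52 and 135 tags and 3.08 (2.22 to 4.32). MOB1B, a cofactor of the LATS kinases, had the lowest, with 16 and 12 tags and 0.889 (0.384 to 2.00). DCHS1, a cadherin that binds FAT proteins, and TEAD3, a transcription factor partner of YAP, were listed in lactate alone with 39 and 19 tags. Of the other genes mutated in head and neck squamous carcinoma 17 of 20 had a region in both, with a median of 1.71 and the highest ratio, 2.61, at HRAS. The medians of the RB, death receptor, Hippo and mutated gene lists thus lay below 1.84, and those of the CDK inhibitor and p53 lists above it.

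The genes whose start regions were most like the members in height over the 2 libraries were found by distance on the log2 scale. For CDKN1A these were MC1R, with 2.74 and 7.86 CPM, and MT1X, with 2.74 and 8.12. CDKN2A at its ARF start was matched by APBA3, at the same 2.14 and 2.21, and by EFCAB10. CDKN2B was nearest to COL12A1 and BIRC2, FAT1 to ANTXR1 and RNPC3, and CASP8 to IFT172 and DPF2. With 2 libraries, likeness in height over 2 values is a description of level alone.

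Among the library-only members, 11 of the 17 lactate-only regions lay within 5 kb of a region of the untreated list, so the listing limit near them could be read. In 0 of the 11 would the same density, that is equal CPM, have fallen below the lowest pileup listed in the untreated library at a similar local background. Equal CPM gives more tags in the deeper untreated library, so a low count was likely from the outset. No conclusion is drawn from it. Of the 6 untreated-only regions 5 lay within 5 kb of a region of the lactate list, and 1, at the AJUBA start, fell below the limit. The lowest pileup is a lenient limit, and the 5th percentile of the same pileups is a stricter one. All 5 of these untreated-only regions lay below it, as at chr14:22967548-22967903 with 9.28 against 12 tags. Of the 11 lactate-only regions 1 did, chr14:22986622-22986895, with 23.7 against 27. Passing the lenient limit thus does not show that an equally open site would have been listed. Shared regions had a median ratio of 1.65, so a lactate-only site with that ratio would have fewer untreated tags than at equal CPM. For such a site this reading does not tell whether it would have been listed. No share over all library-only regions is given beside these counts. Library-only summits held 6 to 32 tags in lactate and 7 to 37 in untreated.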

How the data were processed

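ATAC-seq peak lists of 1 untreated and 1 lactate-treated CAL27 library were used. The submitters' processing notes list the hg38 build, BWA 0.7.12 and fastp 0.20.0; MACS2 is listed there as 2.1.0 but in the file headers as 2.2.7.1. Each library had its own peak calls without a control, which the authors made, per the file headers, at a q-value of 0.05, with tags shifted by 100 bp and extended to 200 bp. The deposited pileup is a signal, the unscaled number of extended tags at a summit, and the deposited fold enrichment is a ratio of pileup to local background, each with 1 added, per the file headers. Positions were deposited in base pairs.

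Regions with several summits took the highest. Regions of both lists on chromosomes 1 to 22 and X that overlapped by at least 1 bp were merged, and overlaps equalled those of bedtools 2.31.1. Pileups were divided by each header's total tags and multiplied by 1000000 (CPM). The relative ratio used 20 classes of summit tags. Dividing the pileup by the fold enrichment gave the 10 kb tag count, whole within 0.05 tag in 100% of regions above the genome background. Similar local backgrounds lay within 0.5 tags. Gene positions and promoters came from RefSeq tables of GRCh38.p14. Ratios have exact conditional Poisson intervals and shares exact binomial ones, all for counting error only; PCR copies are not independent tags. Scripts ran in Python 3.11.15 with pandas 2.3.3 and scipy 1.17.1 and were tested on simulated data.

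With 1 library per group no test was made. Named were each member's start region, its 3 tallest other regions, its strongest library-only region in each library, its 2 nearest genes by start height, and of 6 related lists the highest, the lowest and any gene listed in 1 library alone. The lowest gene of 1 list is not reported here. Further regions were named after their values were seen: those with the highest or lowest ratio of a window or beside a start, and those inside AJUBA. The members, lists and motifs were chosen with earlier results of these data known. Other windows, overlaps, fold thresholds, list lengths, scalings and summit sums were tried.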

Additional observations from a re-analysis of the deposited data

How the results depend on the processing

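No paired analysis was possible because there is 1 library on each side. Of 56 alternative values, 11 reversed direction, 19 moved outside the counting interval or, for counts, by over 1.5 times, and 26 did neither. Reversed means that a ratio crossed 1. Most reversals came from scaling to the median pileup or from the relative ratio. Under these the median of all shared regions is itself near 1, against 1.65 as reported, so such a reversal is not one against the background. Within 10 kb of the genes 26 regions were shared and 7 lactate-only. In gene bodies alone there were 20 shared, 3 lactate-only and 1 untreated-only. Cutting the lactate list to the length of the untreated list left 8 regions in lactate alone and 18 in untreated alone. A fold enrichment of at least 4 left 2 untreated-only. Leaving out the AJUBA window, chosen after seeing the data, left 9 lactate-only and 1 untreated-only. At that fold enrichment the start regions of CDKN1A and FAT1 were no longer listed in both libraries.

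Scaling to the median pileup of shared regions, which moves the median ratio of all shared regions to 0.987, moved the member median across 1 to 0.931. The member median lay below that of all shared regions under this scaling and as reported, at 1.55 against 1.65. The scaling gave 0.619 at the ARF start and 1.01 at the INK4a start of CDKN2A, 0.931 at CDKN2B and 1.73 at CDKN1A. At the outer and inner CASP8 starts it gave 1.04 and 0.930. Relative to regions of equal summit tags these starts stood at 0.581, 0.964, 0.822, 1.49, 0.899 and 0.852. CDKN1A alone of these 6 starts stayed above 1 under both, and FAT1 stayed below 1, at 0.568 and 0.610. Summing all summits gave a member median of 1.36, with 4.46 at CDKN1A and 1.12 at the outer CASP8 start. These sums also reflect how many summits were called. At CDKN1A there was 1 untreated and 2 in lactate, and at the outer CASP8 start 3 and 1. The tags in 10 kb, also added after seeing the data, gave 0.994 at the INK4a start, 1.73 at CDKN1A, 1.06 at FAT1 and 1.11 at the outer CASP8 start. At summits of few tags, as in the FAT1 window, the intervals are wide, which limits what this depth can show.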
